A study of Rattus norvegicus with 6 samples.

Results

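The genes described here are 40 genes of the cell cycle, chosen by name and read from a table of RNA levels of cultured rat brain cells. All 40 were found by exact symbol among the 37183 symbols of the table, and each had a value in all 6 libraries. They are taken by role: 5 cyclins and kinases of G1, 5 genes of the switch from G1 to S phase, 10 genes of DNA replication and nucleotide supply, 17 genes of G2 and mitosis, and 3 inhibitors of cyclin-dependent kinases.

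A dividing cell passes G1 under D-type cyclins with their kinases, which phosphorylate the retinoblastoma protein and so release E2F transcription factors. E2F then drives genes of DNA replication, and a later programme, under B-MYB, FOXM1 and NF-Y, drives cyclins, kinases and spindle proteins of G2 and mitosis. Postmitotic neurons have left the cycle, while astrocytes in culture can still divide, and growth factors including insulin act mainly in G1.

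The RNA came from primary hippocampal cultures of rat, 1 set labelled astrocytes and the other labelled neurons. Each set gave 3 libraries, 1 from control cells and 1 each after 6 h and 12 h with insulin at 200 nM, so every group had 1 library. The control is named saline in the titles and untreated at 0 min in the characteristics. Astrocytes were grown with 10% FBS and 25 mM glucose, and 4 h before treatment were moved to 2% FBS and 5 mM glucose, so their control and insulin libraries alike came from cultures in which serum had been lowered. Neurons were grown in serum-free Neurobasal with 1% B27 and were moved 4 h before treatment to the same medium with insulin-free B27. If the controls were taken at 0 h, as labelled, time in the changed medium differs between control and insulin libraries, and insulin and that time cannot be told apart. The sources used here give neither the age of the animals nor how many were pooled.

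Libraries are named below by their labels, as astrocyte-labelled and neuron-labelled, because cell type markers went against both labels in part. The 10 astrocyte markers summed to 31.6 to 37.7 FPKM (reads scaled by gene length and library size) in the astrocyte-labelled libraries and to 345 to 383 FPKM in the neuron-labelled ones. Gfap, the astrocyte filament protein, was at 6.23 FPKM in the astrocyte-labelled control, against 96.7 FPKM. The 12 neuron markers summed to 63.2 to 72.8 FPKM in the neuron-labelled libraries and to at most 4.88 FPKM in the others. Markers of the oligodendrocyte lineage were also higher in the neuron-labelled libraries, at 112 to 118 FPKM against at most 3.95 FPKM. Fibroblast markers reached 93.2 to 112 FPKM, and smooth muscle and pericyte markers 422 to 501 FPKM, in the astrocyte-labelled libraries, against at most 0.465 and 10.4 FPKM in the neuron-labelled ones. Progenitor markers summed to 195 to 215 FPKM in the astrocyte-labelled libraries, of which vimentin made up most, and to 102 to 157 FPKM in the neuron-labelled ones. The neuron-labelled libraries thus held marker RNA of all 3 lineages. The summed levels of the microglia, endothelial and ependymal lists stayed at or under 6.502, 0.547 and 2.24 FPKM.

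Values are FPKM recovered from the deposited log2 table, in which the values that were not blank had been given the same distribution in the 6 libraries. The number of such values differed, at 22891, 23814 and 23898 in the astrocyte-labelled control, 6 h and 12 h libraries. It was 23927, 25510 and 25528 in the neuron-labelled ones. The FPKM of all genes summed to 289384, 298576 and 299405, and to 299680, 314554 and 314706, so both sums were lowest in the control. FPKM is a level per length and can be compared between genes. A difference is one of log2 FPKM, so 1 is 2-fold, and between the controls it is astrocyte-labelled minus neuron-labelled. Where 3 values of a gene or list follow each other, they are in the order control, 6 h and 12 h. With 1 library per group there was no replicate, and no test or error could be computed. "Rose" and "fell" are used only of a difference of 2-fold or more in a gene with at least 1 FPKM in either library, and mean no more than that size between these libraries.

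**Figure D1:**
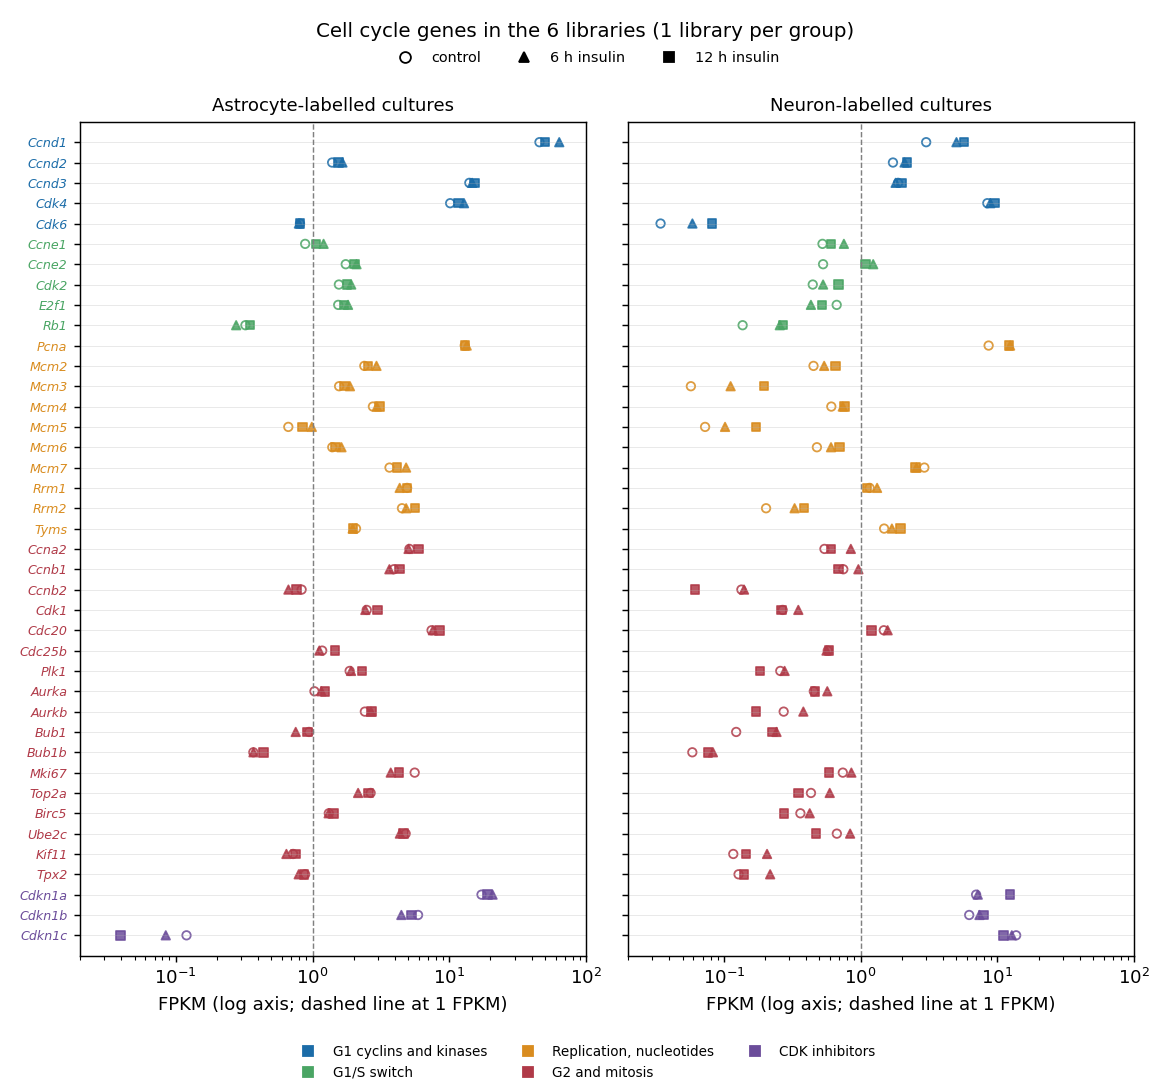
FPKM of the 40 cell cycle genes on a log axis, by role, in the astrocyte-labelled (left) and neuron-labelled (right) libraries, with 1 symbol per library. Most genes of replication and mitosis lie right of the dashed line at 1 FPKM on the left and left of it on the right, while the 3 symbols of most genes within a culture lie closer together than that.

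In the astrocyte-labelled control 30 of the 40 genes reached 1 FPKM, and in the neuron-labelled control 12 did. The 40 genes together summed to 182, 206 and 196 FPKM in the astrocyte-labelled libraries, and to 67.7, 77.9 and 81.2 FPKM in the neuron-labelled ones. Ccnd1 alone gave 45.6 FPKM of the astrocyte-labelled sum, and Cdkn1c, a kinase inhibitor, 13.7 FPKM of the neuron-labelled one.

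All 17 genes of G2 and mitosis were higher in the astrocyte-labelled control than in the neuron-labelled one, by 1.03 to 3.23 on the log2 scale and a median of 2.65. Over all 40 genes, with no minimum level, 32 were 2-fold or more above the neuron-labelled level and 1 was below it, where 21.4% of all genes were higher and 25.2% lower. Of the 31 genes with at least 1 FPKM in either control, 24 were higher and 1 lower, against 18.7% and 21.9% of all genes. Of those 31, 19 passed this minimum only through the astrocyte-labelled control, so that count is in part a product of the minimum. The median over the 40 genes was 2.36, while that of all genes was -0.10 at 1 FPKM or more and -0.16 from 0.05 to under 1 FPKM. In RNA of whole cultures, fewer cells of a type and less RNA per cell cannot be told apart. Markers of fibroblasts, smooth muscle, neurons and oligodendrocytes differed between the same libraries, and their part in this result was not tested.

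**Figure D2:**
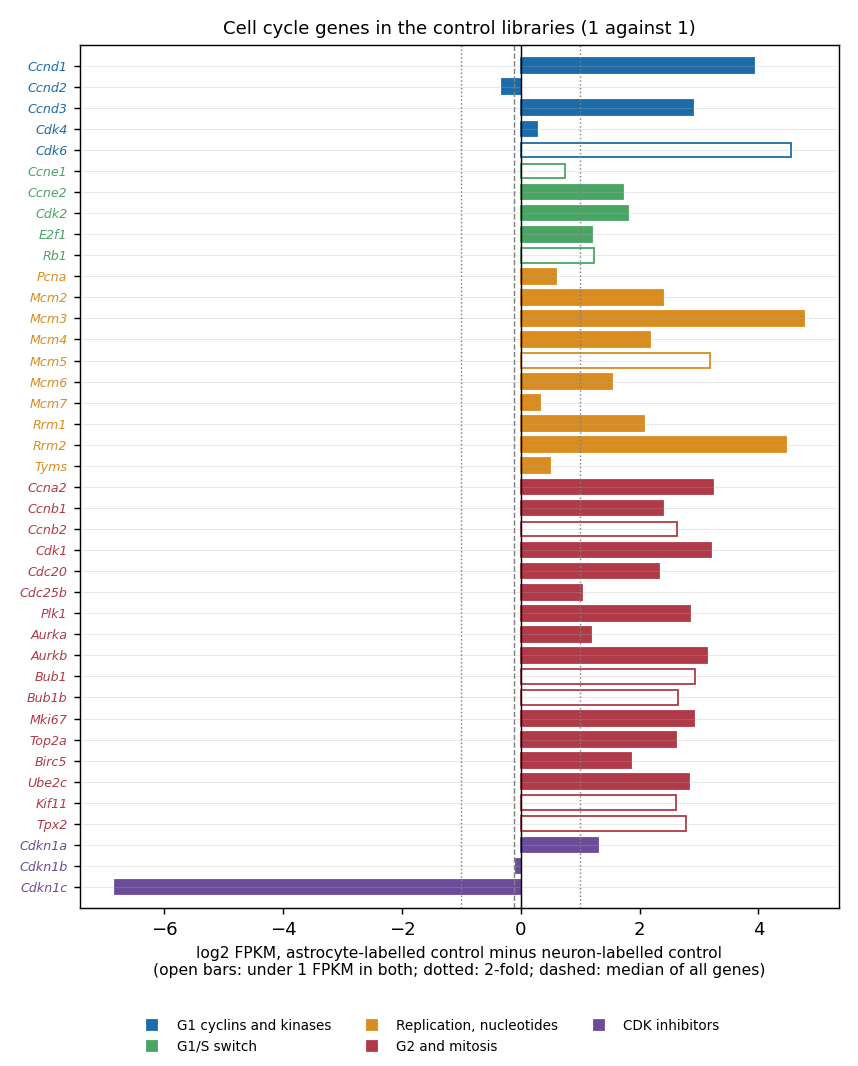
Difference in log2 FPKM between the astrocyte-labelled and the neuron-labelled control for each of the 40 genes, as bars from 0, coloured by role and open where both levels were under 1 FPKM. All 17 genes of G2 and mitosis lie beyond the dotted 2-fold line, and Cdkn1c extends to -6.84 the other way.

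Among the genes of G2 and mitosis, Cdc20, the activator of the anaphase-promoting complex, had the highest level, at 7.42 FPKM in the astrocyte-labelled control against 1.48 FPKM. It was the only gene of this role at 1 FPKM or more in any neuron-labelled library. Mki67, the proliferation marker, was at 5.58 and 0.741 FPKM in the controls. Ccna2, the cyclin of S phase and G2, was at 5.11 and 0.544 FPKM. Its partner Cdk1 was at 2.49 and 0.269 FPKM, and the mitotic cyclin Ccnb1 at 3.93 and 0.747 FPKM. Aurkb, a kinase of chromosome segregation, and Plk1, a kinase of mitotic entry, differed by 3.14 and 2.85 on the log2 scale. The smallest differences of this role were those of Aurka, a centrosome kinase, at 1.18, and of Cdc25b, the phosphatase that activates Cdk1, at 1.03. Bub1, Bub1b, Ccnb2, Kif11 and Tpx2, of the spindle checkpoint, mitotic entry and the spindle, were under 1 FPKM in all 6 libraries and differed by 2.62 to 2.94.

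The promoters of 4 of these genes are printed to show which of the sequence elements known from the mitotic programme they hold. They belong to the genes of G2 and mitosis with the highest levels in the astrocyte-labelled control among those with a promoter in the reference table. The element of the NF-Y factor is the CCAAT box (CCAAT), and that of the DREAM and B-MYB complexes is the cell cycle genes homology region, CHR (TTTGAA). The sequences are the 250 bases before the annotated start, from RefSeq in build GRCr8, while the deposited values were made on another build. All 4 genes are on the minus strand, and the sequences run 5′ to 3′ on that strand, with matches to either element on either strand in capitals. Cdc20 is at chr5:137255800-137256049, Mki67 at chr1:199952594-199952843, Ccnb1 at chr2:33655226-33655475 and Top2a at chr10:84473094-84473343.
Cdc20: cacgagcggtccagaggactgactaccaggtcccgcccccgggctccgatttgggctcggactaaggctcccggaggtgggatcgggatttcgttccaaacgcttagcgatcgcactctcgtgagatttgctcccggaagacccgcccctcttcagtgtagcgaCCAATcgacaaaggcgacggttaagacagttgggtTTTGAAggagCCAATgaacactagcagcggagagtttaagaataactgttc
Mki67: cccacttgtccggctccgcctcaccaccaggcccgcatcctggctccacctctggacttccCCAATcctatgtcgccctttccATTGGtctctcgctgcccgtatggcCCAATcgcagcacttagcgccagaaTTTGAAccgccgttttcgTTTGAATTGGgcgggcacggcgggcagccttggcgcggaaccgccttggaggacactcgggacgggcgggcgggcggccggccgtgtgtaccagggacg
Ccnb1: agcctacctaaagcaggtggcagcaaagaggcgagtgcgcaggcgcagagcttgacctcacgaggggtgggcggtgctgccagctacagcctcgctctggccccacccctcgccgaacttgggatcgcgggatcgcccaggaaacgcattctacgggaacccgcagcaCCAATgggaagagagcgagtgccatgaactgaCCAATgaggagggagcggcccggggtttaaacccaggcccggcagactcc
Top2a: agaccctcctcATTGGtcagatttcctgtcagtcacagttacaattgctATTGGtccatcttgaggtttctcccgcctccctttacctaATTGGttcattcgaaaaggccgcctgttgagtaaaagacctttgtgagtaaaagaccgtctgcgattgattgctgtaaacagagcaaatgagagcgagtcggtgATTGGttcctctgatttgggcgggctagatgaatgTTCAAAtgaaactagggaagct
Cdc20 held a CHR 51 bases before the start between CCAAT boxes at 86 and 41 bases, and Mki67 held 4 CCAAT boxes and 2 CHR matches, where the CHR nearer the start overlapped a CCAAT box. Top2a, the topoisomerase that untangles replicated chromosomes, held 4 CCAAT boxes and a CHR at 22 bases, all on the opposite strand. Ccnb1 held CCAAT boxes at 82 and 50 bases and no match to these CHR letters.

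Of the 40 genes, 28 had a promoter in the reference table, searched from 250 bases before to 50 bases after the start on both strands. The CCAAT box was in 10 of 13 promoters of G2 and mitosis (76.9%) and in 37.7% of all 27457 promoters. The CHR was in 8 of 13 (61.5%), and in 18.1% of all. Both elements stood together in 7 of 13 (53.8%), and in 7.25% of all. In the 100 bases before the start alone, both stood together in 5 of 13 and in 1.02% of all. These are descriptions of letters, and a match is not shown to be a site in use.

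The E2F element was searched as TTTGGCGC, TTTCCCGC, TTTCGCGC and TTTGCCGC. It was in 6 of 8 promoters of replication and nucleotide supply (75%) and in 2.25% of all promoters, and in 1 of 13 of G2 and mitosis, that of Cdk1. In the 100 bases before the start alone it was in 4 of 8, in 0.830% of all promoters and in none of the 13. The CCAAT box was also in 6 of those 8 promoters, and the CHR in 1, that of Mcm2. The stretches around the matches of 4 replication genes, with the element in capitals and 10 bases on each side, show the forms found. They are from the same RefSeq build, on the minus strand: Mcm2 at chr4:122918087-122918118, Mcm3 at chr9:30733716-30733762, Mcm6 at chr13:42404470-42404501 and Tyms at chr9:120776103-120776130.
Mcm2: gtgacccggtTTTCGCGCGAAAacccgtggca
Mcm3: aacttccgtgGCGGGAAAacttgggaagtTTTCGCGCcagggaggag
Mcm6: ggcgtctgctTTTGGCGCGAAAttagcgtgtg
Tyms: aggtgcgggtTTTGGCGCcgactacact
The runs of Mcm2 and Mcm6 read as the element on both strands, so 2 matches overlap in each, as they also do in Mcm5, and in Mcm7 an E2F match overlaps a CCAAT box. The Mcm3 stretch crosses the start and holds 2 separate matches, and Tyms, thymidylate synthase, holds 1.

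**Figure D3:**
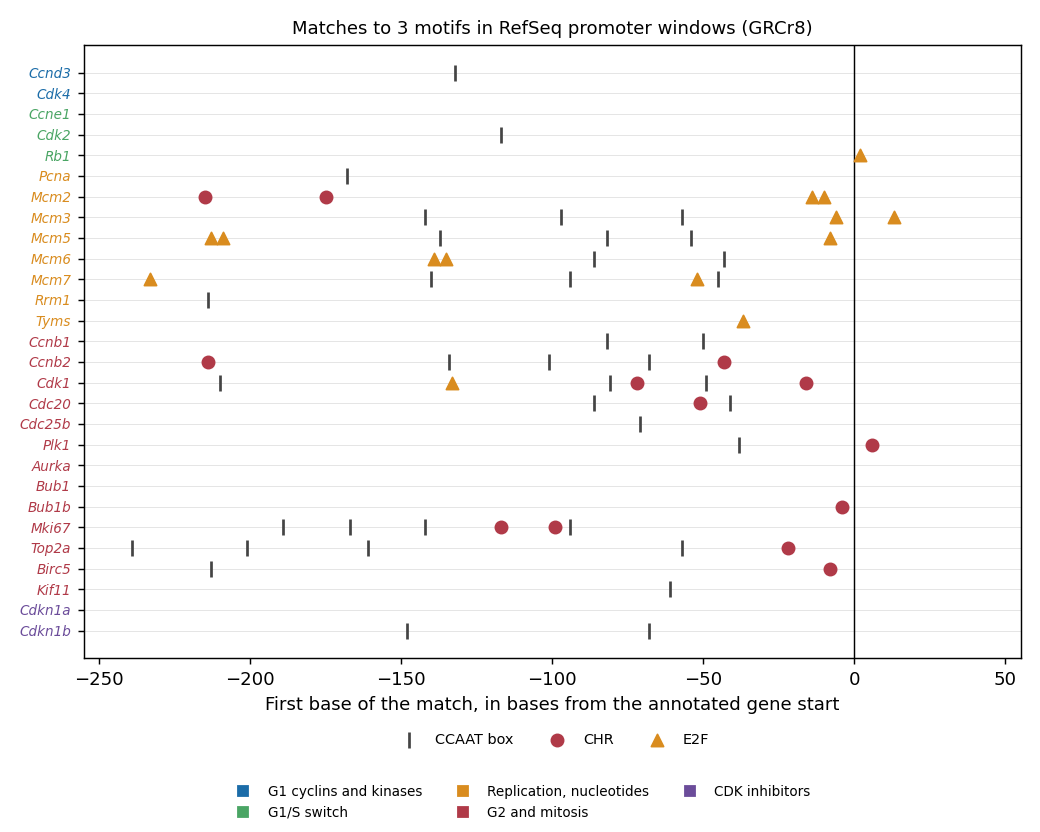
Positions of matches to the CCAAT box (bars), CHR (circles) and E2F element (triangles) in 28 promoters, as the first base of the match in bases from the annotated gene start, genes coloured by role. Triangles lie in 6 of 8 promoters of replication genes, and circles in 8 of 13 of G2 and mitosis.

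For replication, 10 of 10 genes were above their neuron-labelled level, 7 of them by 2-fold or more, against 21.4% of all genes with no minimum level. Mcm3, a subunit of the MCM helicase that opens DNA at origins, was at 1.57 against 0.0574 FPKM, a difference of 4.77. Rrm2, the small subunit of ribonucleotide reductase, was at 4.51 and 0.204 FPKM, a difference of 4.47. The helicase subunits did not move as a block between the controls: Mcm5, Mcm2, Mcm4 and Mcm6 differed by 3.19, 2.40, 2.18 and 1.54, and Mcm7 by 0.32. Pcna, the sliding clamp of replication and repair, was high in both cultures, at 13.0 and 8.62 FPKM, and Tyms was at 2.08 and 1.49 FPKM. Levels of Mcm7, Mcm2, Mcm4, Pcna, Rrm1 and Rrm2 are uncertain to the extent that reads were shared with pseudogenes or near copies. RefSeq lists 27 such copies for 15 of the 40 genes, among them Cdk1, Ccnb2, Cdk4, Ccnd3, Aurka, Mki67, Ube2c, Kif11 and Tpx2.

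Among the G1 genes, the D-type cyclins were at different levels. Ccnd1 was at 45.6 FPKM in the astrocyte-labelled control against 3.01 FPKM, and Ccnd3 at 14.0 against 1.88 FPKM. Ccnd2 was at 1.39 against 1.72 FPKM, so its difference of -0.31 lay the other way. In the astrocyte-labelled control the order was Ccnd1, Ccnd3, Ccnd2, while in the neuron-labelled control the lowest and highest of these cyclins were 1.72 and 3.01 FPKM. Of their kinases, Cdk4 was near equal, at 10.1 and 8.44 FPKM, and Cdk6 was at 0.810 and 0.0345 FPKM. At the switch to S phase, the E-type cyclin Ccne2 was at 1.75 and 0.532 FPKM and its kinase Cdk2 at 1.56 and 0.447 FPKM. E2f1, an activating E2F, was at 1.54 and 0.668 FPKM, while Ccne1 and Rb1, the pocket protein, were under 1 FPKM in both controls.

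The inhibitors split. Cdkn1a (p21), a target of p53, was at 17.2 against 6.99 FPKM, the astrocyte-labelled control first. Cdkn1b (p27) was at 5.91 and 6.22 FPKM. Cdkn1c (p57) was at 0.120 and 13.7 FPKM, a difference of -6.84 and the only one of the 40 genes with an astrocyte-labelled level 2-fold or more below the other. Of the INK4 inhibitors, which bind Cdk4 and Cdk6, Cdkn2b was at 5.23 FPKM against 0.0585 FPKM and Cdkn2c at 4.07 against 0.649 FPKM, so both were higher in the astrocyte-labelled control.

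The other genes of these pathways, on lists that hold none of the 40, had the following counts between the controls. Of 50 other mitosis genes 21 could be compared, of which 19 were higher by 2-fold or more and 1 lower, against 18.7% and 21.9% of all genes. Of these 21, 17 passed the minimum only through the astrocyte-labelled control. All 28 between 0.05 and 1 FPKM were higher there too, with a median of 2.52, where 44.6% of all genes of that range were. Kif23, a motor of cytokinesis, was at 1.48 against 0.0899 FPKM, and the condensin subunit Ncapd2, the lower one, at 3.38 against 8.15 FPKM. Of 35 other replication genes 7 were compared, 3 were at least 2-fold higher and none lower, and 3 had passed only through the astrocyte-labelled control. Of 18 other cyclins and kinases 10 were compared, none was higher and 3 were lower, near the 21.9% of all genes that were, among them Cdk5, a kinase known for its roles in neurons, at 1.38 against 3.12 FPKM.

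In the astrocyte-labelled cultures after insulin, none of the 31 genes compared was 2-fold higher or lower than the control at 6 h, against 1.05% of all genes higher and 0.886% lower. At 12 h again none of 31 was, against 0.611% of all genes higher and 0.916% lower. All 31 differences lay within the central 95% of all genes at both times. The differences at 6 h and 12 h share the control library, so they are given side by side and not as support for each other.

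Below that size, the roles differed at 6 h in where they lay about the median of all genes, which was 0.09. The 3 genes of the G1 to S switch at 1 FPKM or more in both libraries lay above it, with a median of 0.26, as did Ccne1, which passed the minimum only through the insulin library. Of the G1 genes 3 of 4 lay above it, with a median of 0.29. Replication genes lay above it in 6 of 9 cases, with a median of 0.10, and genes of G2 and mitosis in 2 of 12, with a median of -0.03. With no minimum level, where the median of all genes was 0.16, the count for G2 and mitosis was 1 of 17. For replication it was then 5 of 10, and for all members 14 of 40.

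Ccnd1 was at 45.6, 63.6 and 49.9 FPKM, differences of 0.48 and 0.13 from the control. Ccne1 was at 0.884, 1.21 and 1.06 FPKM. Mcm7 was at 3.66, 4.83 and 4.14 FPKM, the largest difference among the replication genes compared, 0.40 at 6 h. Each of these was highest at 6 h. Mki67 went the other way, at 5.58, 3.73 and 4.28 FPKM, with differences of -0.58 and -0.38. Top2a was at 2.66, 2.16 and 2.56 FPKM. Cdkn1b was at 5.91, 4.46 and 5.31 FPKM and Cdkn1a at 17.2, 20.7 and 19.0 FPKM. Both Mki67 and Cdkn1b were lowest at 6 h, and Cdkn1a was highest there. Cdkn1c, under 1 FPKM throughout, was at 0.120, 0.0846 and 0.0396 FPKM.

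At 12 h the median of all genes was 0.10. Genes of G2 and mitosis lay above it in 9 of 12 cases, with a median of 0.18, and replication genes in 4 of 9, with a median of 0.09. With no minimum level, where the median of all genes was 0.18, 7 of 17 genes of G2 and mitosis lay above it, so they were no longer the majority, and 2 of 10 of replication and 13 of all 40 genes did. Cdc20 was at 7.42, 7.59 and 8.50 FPKM, Ccna2 at 5.11, 5.04 and 5.96 FPKM and Plk1 at 1.87, 1.91 and 2.30 FPKM. These 3 were highest at 12 h. Of all 17 genes of G2 and mitosis 11 were highest at 12 h and 6 in the control. Among all genes at 1 FPKM or more in any library of these cultures, 40.8% and 21.4% were. Rrm2 was at 4.51, 4.84 and 5.59 FPKM.

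The same roles outside the 40 genes are given for comparison. Of the other replication genes, 11 were compared at 6 h and none reached 2-fold. Of these, 4 passed the minimum only through the insulin library, and of the 7 at 1 FPKM or more in both libraries 6 lay above the median of all genes, with a median of 0.19. Cdt1, which loads the MCM helicase, was at 0.856, 1.41 and 1.08 FPKM, and Orc6, of the origin recognition complex, at 0.886, 1.34 and 1.25 FPKM. Both were among the 4 that passed through the insulin library alone. Of the other mitosis genes, 8 of 23 lay above that median at 6 h, with a median of -0.05, and 14 of 23 at 12 h, with a median of 0.13. Cenpf, a kinetochore protein, was the lowest of them, at 2.15, 1.24 and 1.59 FPKM. Of 15 genes of quiescence and early growth response, 1 of 13 compared rose at 6 h, Fosl1 from 0.531 to 1.19 FPKM, against 1.05% of all genes. At 12 h 1 of 12 fell, Egr1 from 1.46 to 0.652 FPKM, against 0.916%. Each of these passed the minimum only through the library in which it was high. Of the same list, 3 of 13 lay above the median of all genes at 6 h, with a median of -0.02, and 2 of 12 at 12 h, with a median of -0.12. Outside the central 95% of all genes lay 2 of 13 at 6 h and 4 of 12 at 12 h. The astrocyte markers of these libraries summed to 33.2, 37.7 and 31.6 FPKM, with Gfap at 6.23, 12.4 and 8.45 FPKM and Glul at 5.32, 4.20 and 3.29 FPKM, and the part of cell makeup in these differences was not tested.

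**Figure D4:**
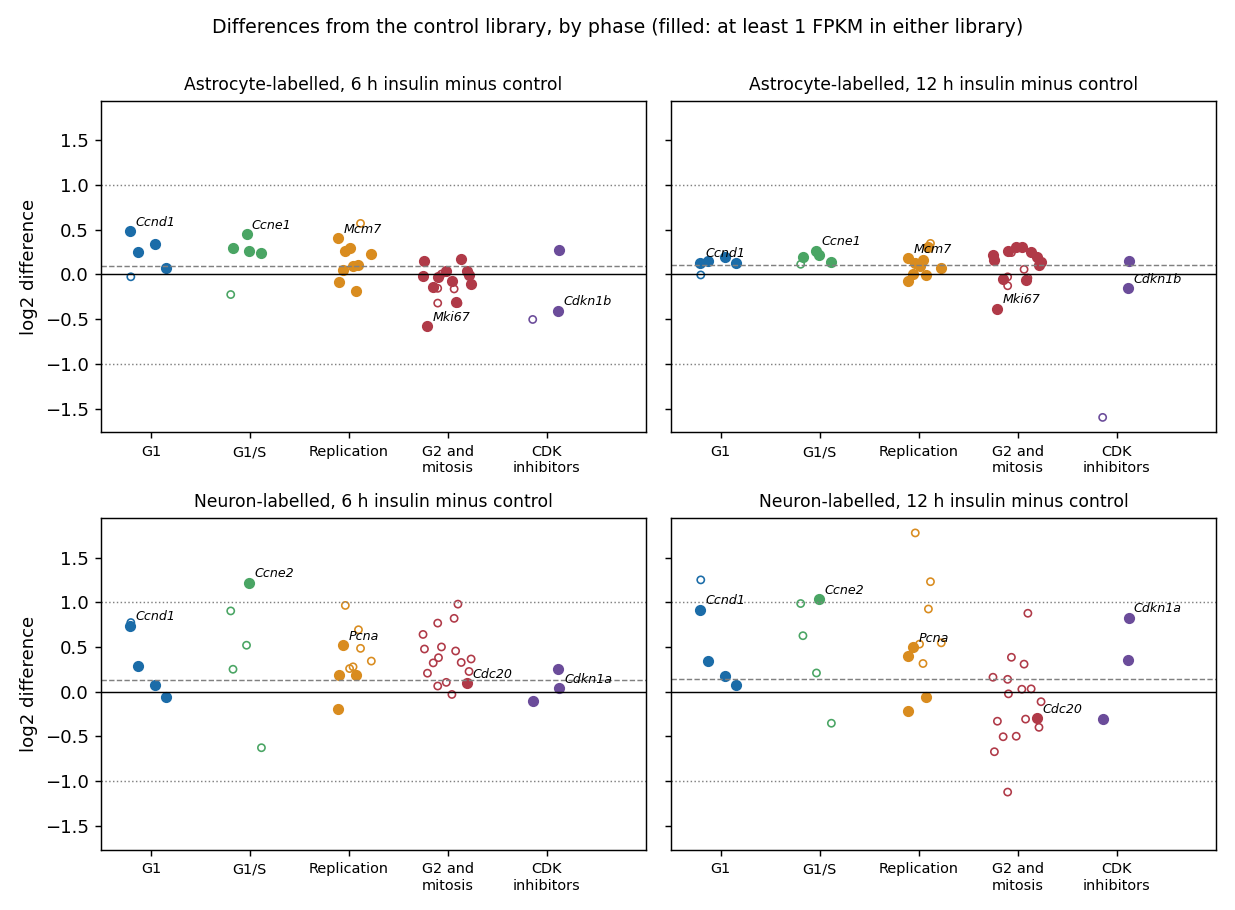
Difference in log2 FPKM from the control library at 6 h (left) and 12 h (right) of insulin, in astrocyte-labelled (top) and neuron-labelled (bottom) cultures, with 1 point per gene by role, filled at 1 FPKM or more. The dotted lines mark 2-fold and the dashed line the median of all genes; no filled point of the top row passes 2-fold, and Ccne2 is the filled point above it in the bottom row.

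In the neuron-labelled cultures only 13 of the 40 genes could be compared with the control at either time. Ccne2 was at 0.532, 1.24 and 1.09 FPKM, so it rose by 1.22 at 6 h and by 1.03 at 12 h. It passed the minimum only through the insulin libraries. That is 1 of 13 higher and none lower at each time, against 1.6% higher and 1.29% lower of all genes at 6 h. At 12 h the shares of all genes were 2.39% and 1.45%. Ccnd1 was at 3.01, 5.02 and 5.69 FPKM, differences of 0.74 and 0.92. Pcna was at 8.62, 12.4 and 12.2 FPKM, and Cdkn1a at 6.99, 7.18 and 12.4 FPKM. Ccnd1 was higher in both insulin libraries than in the control, while Cdkn1a was higher at 12 h and near the control at 6 h. Mcm7, at 2.92, 2.56 and 2.52 FPKM, was highest in the control.

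The other 27 genes were under 1 FPKM in every neuron-labelled library, where the precision is unknown and all low genes spread widely. With no minimum level, 1 of 40 genes was at least 2-fold higher at 6 h and none lower, against 13.4% of all genes higher and 3.85% lower. At 12 h 4 were higher (Mcm3, Cdk6, Mcm5 and Ccne2) and 1 lower (Ccnb2), where 14.3% of all genes were higher and 4.17% lower. The shares among the 40 genes did not exceed those of all genes. Mcm3 was at 0.0574, 0.112 and 0.197 FPKM, Mcm5 at 0.0730, 0.102 and 0.171 FPKM and Cdk6 at 0.0345, 0.0589 and 0.0820 FPKM. All 3 were highest at 12 h, and the highest of these values was 0.197 FPKM.

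The direction of these low genes was read against all genes between 0.05 and 1 FPKM. At 6 h 15 of 16 such genes of G2 and mitosis were above the control, with a median of 0.37, and 80.1% of all genes of that range were, with a median of 0.36. So at 6 h they stood where other genes of their level stood. At 12 h 7 of 16 were above the control, with a median of -0.07, where 77.0% of all genes of that range were, with a median of 0.33. All 6 low replication genes were above the control at 12 h, with a median of 0.74. Of the 4 low genes of the G1 to S switch, 3 were above the control at both times. E2f1 was below it at both, at 0.668, 0.433 and 0.524 FPKM.

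The 6 h and 12 h insulin libraries of a culture can also be compared directly, with no control library in the difference, though each library also enters the differences above. In the astrocyte-labelled cultures, all 17 genes of G2 and mitosis were higher at 12 h than at 6 h, by 0.01 to 0.38 and a median of 0.22. In the neuron-labelled cultures 16 of the 17 were lower at 12 h than at 6 h, with a median of -0.51, the exception being Cdc25b at 0.06. All genes at 1 FPKM or more had a median of 0.02 in the former and of -0.01 in the latter. In the former 53.7% of these genes were higher at 12 h, and 56.3% of those from 0.05 to under 1 FPKM. In the latter 51.7% and 52.5% were lower at 12 h. Whether the cultures differ in this was not tested, as each side rests on 1 library per time.

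By size, none of 31 genes compared was 2-fold higher or lower between these times in the astrocyte-labelled cultures, where 0.256% of all genes were higher and 0.511% lower, and all lay within the central 95% of all genes. None of 13 was in the neuron-labelled cultures, where 0.555% were higher and 0.51% lower. With no minimum level, none of 40 was higher there and 2 were lower, Ccnb2 and Aurkb, where 6.56% of all genes were higher and 5.77% lower. Most differences of the mitosis genes were thus below 2-fold, and all but that of Cdc25b in the neuron-labelled cultures had 1 direction within a culture.

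In the neuron-labelled cultures Cdc20 was at 1.48, 1.58 and 1.20 FPKM. Ube2c, the ubiquitin-conjugating enzyme that works with Cdc20, was at 0.670, 0.838 and 0.473 FPKM, and Aurkb at 0.274, 0.381 and 0.172 FPKM. Top2a was at 0.434, 0.594 and 0.351 FPKM and Mki67 at 0.741, 0.856 and 0.590 FPKM. All 5 were highest at 6 h and lowest at 12 h. Of all 17 genes of this role 16 were highest at 6 h, but only 10 were lowest at 12 h and 6 were lowest in the control. Among all genes at 1 FPKM or more in any library of these cultures, 36.9% were highest at 6 h. Birc5 (survivin), the partner of Aurkb, was at 0.363, 0.424 and 0.275 FPKM. Of the 16 genes of this role between 0.05 and 1 FPKM, 15 were lower at 12 h than at 6 h, where 52.5% of all genes of that range were. Their median was -0.52, against -0.02 for all genes of that range. Ccnb1, at 0.747, 0.963 and 0.692 FPKM, was also highest at 6 h and lowest at 12 h.

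The low replication genes went the other way. In the neuron-labelled cultures the 6 low replication genes were all higher at 12 h than at 6 h, with a median of 0.25, where 47.5% of all genes of that range were higher. The 4 replication genes at 1 FPKM or more did not lean that way, as Pcna, Mcm7 and Rrm1 were lower at 12 h than at 6 h and the median was -0.02. Of the other replication genes at 1 FPKM or more, 3 of 4 were lower too, with a median of -0.19, and 18 of 29 low ones were higher, with a median of 0.12. In the astrocyte-labelled cultures 46.3% of all genes at 1 FPKM or more were lower at 12 h than at 6 h. There 5 of 9 replication genes compared were lower, with a median of -0.04. All 4 genes of the G1 to S switch compared were lower, with a median of -0.10. Mcm2, for example, was at 2.39, 2.94 and 2.55 FPKM in the astrocyte-labelled libraries and at 0.452, 0.541 and 0.654 FPKM in the neuron-labelled ones.

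**Figure D5:**
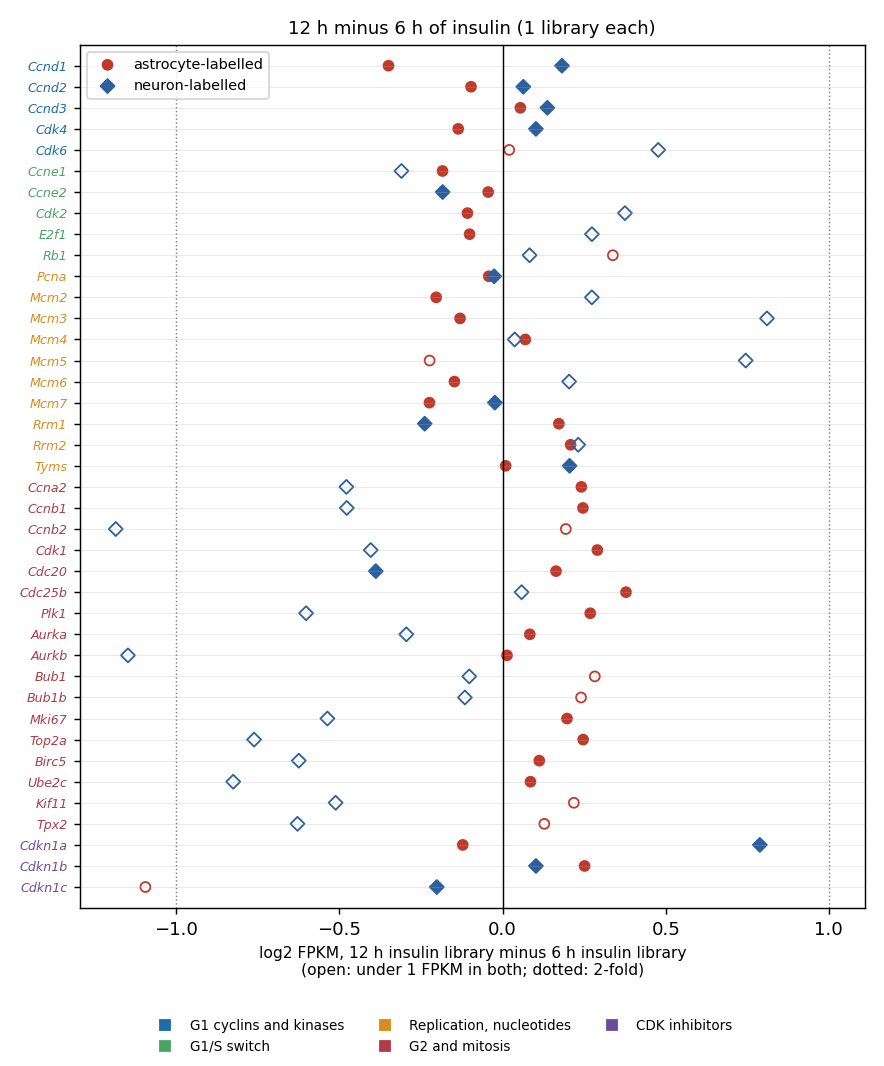
Difference in log2 FPKM between the 12 h and the 6 h insulin library for each of the 40 genes, with circles for astrocyte-labelled and diamonds for neuron-labelled cultures, open where both levels were under 1 FPKM. Circles of the 17 genes of G2 and mitosis all lie right of 0 and 16 of their 17 diamonds left of it.

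Markers of other cells moved between the same neuron-labelled libraries. The progenitor markers summed to 102, 126 and 157 FPKM, with nestin at 14.4, 20.3 and 35.5 FPKM. The smooth muscle and pericyte markers summed to 4.37, 6.54 and 10.4 FPKM. The astrocyte markers summed to 369, 383 and 345 FPKM and the neuron markers to 69.3, 72.8 and 63.2 FPKM, so both sums were highest at 6 h and lowest at 12 h. Their members did not all have that order, as Gfap was at 96.7, 109 and 134 FPKM and Tubb3, the neuronal tubulin, at 29.97, 32.5 and 33.7 FPKM. The part of these markers in the order of the mitosis genes was not tested.

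Among the inhibitors, Cdkn1a had the largest difference between the times in the neuron-labelled cultures, 0.79 higher at 12 h than at 6 h, and it was the only one of the 13 genes compared outside the central 95% of all genes. Of 15 genes of p53 and its targets, which do not include Cdkn1a, 13 were compared, and 11 of them lay above the median of all genes in the same difference, with a median of 0.24. Against the control at 12 h 1 of 13 rose and none fell, where 2.39% of all genes were higher and 1.45% lower. That was Mdm2, the ligase that limits p53, at 1.91, 2.62 and 4.42 FPKM. Ccng1, another p53 target, was at 54.5, 72.9 and 102 FPKM, and Phlda3 at 13.3, 12.5 and 20.5 FPKM. In the astrocyte-labelled cultures Mdm2 was at 4.30, 4.11 and 4.07 FPKM. Ccng1 was at 93.9, 96.1 and 121 FPKM there, and Phlda3 at 29.8, 41.2 and 34.7 FPKM. At 12 h against 6 h, 5 of 13 genes of the list lay above the median of all genes there, with a median of -0.01. At 12 h against the control, 8 of 12 lay above it there and 11 of 13 in the neuron-labelled cultures. Cdkn1c was at 13.7, 12.7 and 11.1 FPKM and Cdkn1b at 6.22, 7.39 and 7.94 FPKM in the neuron-labelled libraries. Like Cdkn1a, Cdkn1b was highest at 12 h, while Cdkn1c was highest in the control.

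The remaining lists added few genes in the neuron-labelled cultures. Of the other cyclins and kinases, 1 of 10 compared rose at both times, against 1.6% of all genes at 6 h and 2.39% at 12 h, namely Ccnc, the cyclin of the Mediator complex, at 1.40, 2.83 and 3.27 FPKM. None of the 6 other E2F and pocket protein genes compared was 2-fold higher or lower at either time, and none of the 4 other replication genes was. Of the other mitosis genes, 33 of the 41 between 0.05 and 1 FPKM were lower at 12 h than at 6 h, with a median of -0.28, where 52.5% of all genes of that range were. Of the 6 at 1 FPKM or more, 3 were higher at 12 h. Of those 3, Gtse1, a protein of S phase and G2, at 0.987, 0.925 and 1.75 FPKM, and Cks2, a subunit that binds cyclin-dependent kinases, at 0.745, 0.843 and 1.17 FPKM, passed the minimum only through the 12 h library.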

How the data were processed

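Total RNA was depleted of ribosomal RNA and made into 6 stranded libraries, per the labels. The deposited values are log2 FPKM in 1 table, quantile-normalised by the authors. The FPKM unit and the quantile step are known from the deposited table's name, and base 2 from Rn45s, whose value of 13.67 would exceed the unit's library total on a natural log scale. bcl2fastq 2.17.1.14, Partek 6.5 and the build Rnor 6.0 are named per the submitters' processing notes, with no aligner or annotation version given in the sources used here. No counts were used, so depth is unknown and no counting interval is given. The number of sample columns left unused was 0.

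Groups came from the treatment, time and cell type labels. Differences of log2 values were computed on the deposited scale with Python 3.11.15 and pandas 2.3.3. A gene was compared if neither library was blank and the higher one reached 1 FPKM, and was counted at 2-fold or more; the counting was tested on simulated data. With 1 library per group there was no test. The members, the lists and the promoter elements were chosen with earlier results of these data known.

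All 40 members are accounted for by role. Up to 4 genes of each other list could be named, those with the 2 highest and 2 lowest differences of the comparison described. Cdkn2a and Cdkn2d are named as well, because they could not be compared between the controls. Promoters were read from RefSeq GRCr8, and all 28 found were searched, a wider set than the rule for members compared between the controls. The stretches with E2F elements were chosen for printing after their matches were seen. The alternatives were other minimum levels, centring, log2(FPKM + 1), filled blanks, a 1.5-fold rule and, for promoters, only the 100 bases before the start.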

Additional observations from a re-analysis of the deposited data

Results flagged for a closer look

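Some genes at 1 FPKM or more moved in opposite directions from the control in the astrocyte-labelled and the neuron-labelled cultures. Each direction rests on 1 library against 1, the difference between the cultures was not tested, and all single differences were below 2-fold. In the neuron-labelled cultures 13 of the 40 genes were compared. At 6 h 63.94% of all genes compared were above the control in the astrocyte-labelled and 68.06% in the neuron-labelled cultures. The shares at 12 h were 66.95% and 66.07%. How many of all genes had opposite directions was not counted, so the flagged genes are not shown to differ from others in this. The values below are the astrocyte-labelled difference minus the neuron-labelled one, in log2 FPKM.

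At 6 h, Mcm7 differed by 0.59 between the cultures, with 0.40 in the astrocyte-labelled and -0.19 in the neuron-labelled ones. Rrm1, the large subunit of ribonucleotide reductase, differed by -0.36 and Tyms by -0.27, both lower than the control in the astrocyte-labelled library and higher in the neuron-labelled one. Cdkn1b differed by -0.66, with -0.41 and 0.25. Ccnd3 differed by 0.13, but its signs were no longer opposite once the median of all genes was subtracted.

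At 12 h, Mcm7 differed by 0.39, with 0.18 and -0.21. Tyms differed by -0.46, with -0.07 and 0.39, and Cdkn1b by -0.51, with -0.15 and 0.35. Cdc20 differed by 0.49, with 0.20 and -0.30. The 6 h and 12 h values of a gene share the control libraries.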

How the results depend on the processing

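The limits are 1 library per group, an unknown depth and quantile scaling that fixes the distribution of the values that are not blank in every library. A further limit is that control libraries, if taken at 0 h as labelled, differ from the insulin libraries in time as well as insulin. Counts of genes at 2-fold or more moved where few genes reached 1 FPKM. With no minimum level, 1 gene (Cdkn1c) was lower in the astrocyte-labelled cultures at 12 h against the control, and 1 at 12 h against 6 h. In the neuron-labelled cultures, 4 were then higher and 1 lower at 12 h, and 2 lower at 12 h against 6 h. With a minimum of 5 FPKM, 0 were higher at 6 h and 0 at 12 h in the neuron-labelled cultures, since Ccne2 was no longer compared, and 6 of 10 were higher in the astrocyte-labelled control. Centring on the median of all genes, or of genes at 5 FPKM or more, gave 0 higher in the neuron-labelled cultures at 12 h, where Ccne2 lay just over 2-fold. On log2(FPKM + 1), 0 were higher at 6 h and 0 at 12 h there. With a 1.5-fold rule, 2 were higher at 6 h, 3 at 12 h and 1 at 12 h against 6 h in those cultures. Shares of all genes at 1.5-fold or with a minimum of 5 FPKM are not given here. Those counts are therefore not read as more or fewer than among all genes.

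Some small medians changed sign. The astrocyte-labelled replication median became -0.011 at 12 h when centred on all genes, and 0.083 at 12 h against 6 h with a minimum of 5 FPKM. The neuron-labelled value of G2 and mitosis at 6 h, 1 gene, became -0.043 and -0.035 under the centrings. With no minimum level, the neuron-labelled medians at 12 h against 6 h became -0.064 for all members and 0.20 for replication. Fewer or more genes compared, or the shift itself, made these changes. No paired analysis was possible because each group had 1 library.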
